A study of Mus musculus with 48 samples.

Results

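Lcn2, Saa3, Slpi and Tnfrsf11b are 4 genes for secreted proteins of inflammation, and they were followed here in mouse GL261 brain tumors, in each library, in each cell and in cells assigned by marker genes to tumor, neutrophil, macrophage and endothelial classes. They are 4 of the 20314 genes that at least 1 of the tables of counts lists, and both tables list all 4. The genes were picked because their levels differed between tumors with a hairpin RNA against Selp (shSELP) and tumors with a negative-control hairpin (shNC) in a mixture of tumor and immune cells. Values of shSELP against shNC in that mixture are therefore given as a description with no test, and nothing is drawn from their direction.

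The GL261 line was derived from a mouse glioma. Its hairpins were carried by the implanted cells and not by the host. The labels give C57BL/6 as the strain, and the methods of the study describe the hosts as male mice whose brains were pooled within a group. The mixture, called the mix below, came from tumors that the labels place at day 16 after inoculation and joined, in equal amounts, CD11b+ cells, the remaining CD45+ cells and a further fraction, with 2 shNC and 2 shSELP libraries. The labels call this last fraction cancer cells, and by the methods it is what was left of the suspension, so other cells of the brain can be in it. A separate experiment on CD11b+ cells, at day 21 by the labels, has 1 shNC and 1 shSELP library. Neither the labels nor the methods say whether the 2 libraries of a group in the mix came from separate pools, so each test over libraries covers the spread between these libraries, whatever their source. The methods give a single day of collection for the single-cell work, which is neither day of the labels, and another version of the droplet reagent kit. A description line of 7 of the 8 sequencing runs of the CD11b+ shSELP library names the negative control, while the title, source name and genotype of these runs name the knockdown. Directions in CD11b+ cells rest on the latter labels.

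Acute-phase genes are switched on in liver and at sites of inflammation by cytokines such as IL-1, IL-6 and TNF, largely through NF-κB, STAT3 and C/EBP factors. Lcn2 (lipocalin 2) binds bacterial iron carriers and is stored in neutrophil granules, and in the brain it is best known from reactive astrocytes. Saa3 is a serum amyloid A protein made outside the liver, by macrophages among others, Slpi inhibits neutrophil serine proteases such as elastase, and Tnfrsf11b (osteoprotegerin) is a soluble decoy receptor for RANKL and TRAIL.

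On GRCm38 with the GENCODE M21 annotation, all 4 genes are protein-coding genes on the minus strand. Lcn2 lies on chromosome 2 from 32384633 to 32388252, and Slpi on the same chromosome from 164354070 to 164389095. Saa3 lies on chromosome 7 from 46711998 to 46715700, and Tnfrsf11b on chromosome 15 from 54250619 to 54278484. The microRNA gene Mir7678 lies inside Slpi on the same strand, so that a read there could come from either gene.

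Levels are given in CPM, counts of unique molecular identifiers (UMIs) divided by all UMIs of the sum and multiplied by 1e6, each summed over the cells of a library or of a cell class within it, so that a library and not a cell is the sample. Kept were cells with 500 genes or more and with no more than 10% of their counts from mitochondrial genes. They numbered 2183 of 2289 in shNC 1, 2179 of 2297 in shNC 2, 2190 of 2293 in shSELP 1 and 2174 of 2293 in shSELP 2. Their UMIs came to 22874762, 22546742, 17323095 and 25512125, with medians per cell of 9547, 8051, 6164 and 9879.5. The CD11b+ libraries kept 2731 of 2862 shNC cells with 12532788 UMIs and 2804 of 2862 shSELP cells with 11406051 UMIs, at medians of 4209 and 3737 UMIs. The libraries of the mix shared 5 cell barcodes and those of the CD11b+ experiment shared 3. Doublets were kept, and the 5% of cells with the highest Scrublet scores were left out in an alternative.

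A cell was assigned to a class when at least 3 of the 8 markers of the class had a UMI and that number exceeded the number for every other of 13 classes by at least 2. In shNC 1, shNC 2, shSELP 1 and shSELP 2 this gave 285, 199, 56 and 51 tumor cells. Neutrophils numbered 8, 12, 23 and 18, and macrophages 679, 664, 430 and 724. Endothelial cells numbered 20, 33, 341 and 70, and microglia 87, 106, 291 and 126. The make-up of the tumor cannot be read from these numbers, which depend on how the fractions were combined. The classes carried their own markers, with a median of 37 summed UMIs of 6 detected tumor markers in tumor cells, 138 of 6 neutrophil markers in neutrophils, 149 of 6 in macrophages, 64 of 7 in microglia and 56 of 7 in endothelial cells. In the mix 25.0%, 24.0%, 18.5% and 25.1% of cells stayed in no class, as did 38.6% and 28.5% of the CD11b+ shNC and shSELP cells. A stricter gate of 4 markers and a margin of 3 would lose 55, 45, 22 and 27 of the tumor cells and 2, 3, 1 and 3 of the neutrophils. It would lose 230, 167, 115 and 181 of the macrophages and 1, 5, 13 and 0 of the endothelial cells.

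Selp, the hairpin target, encodes P-selectin, an adhesion molecule of platelets and activated endothelium, and was barely detected. Its UMIs in the mix numbered 17 in shNC 1, 25 in shNC 2, 21 in shSELP 1 and 21 in shSELP 2. As levels these are 0.743 CPM (95% exact Poisson interval 0.433 to 1.19), 1.11 (0.718 to 1.64), 1.21 (0.750 to 1.85) and 0.823 (0.510 to 1.26), so no difference between the groups was detectable at this depth. In tumor cells, which carry the hairpin, Selp had 1 UMI in each shNC library and 0 in each shSELP library. In endothelial cells it had 8, 12, 15 and 7 UMIs, and each CD11b+ library had 4. The gene lies on chromosome 1 from 164115264 to 164150026 on the plus strand, where Gm16587 and Gm16548 overlap it on the opposite strand. These intervals, like all intervals given for counts, cover counting error only.

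Over whole libraries of the mix, Lcn2 stood at 12.7 and 34.9 CPM in shNC 1 and shNC 2 and at 92.5 and 56.4 CPM in shSELP 1 and shSELP 2. Saa3 stood at 63.8 and 26.8 CPM in the shNC libraries and at 95.8 and 116 CPM in the shSELP libraries. For both genes, and for Tnfrsf11b as given next, each shSELP library lay above each shNC library. The genes were picked on this difference, and the share of all genes with this order over whole libraries was not counted. Tnfrsf11b, far rarer in UMIs, had 2.10, 2.71, 4.16 and 2.82 CPM, from 48, 61, 72 and 72 UMIs. Slpi had 140 and 67.1 CPM in the shNC libraries and 66.2 and 116 CPM in the shSELP libraries, so its groups overlapped over all cells. Its order depended on the class, as described further on. In CD11b+ cells Lcn2 had 2.87 CPM in shNC and 1.40 in shSELP, Saa3 had 32.2 and 150, and Slpi had 69.6 and 46.8. Tnfrsf11b had 0 UMIs in 2731 and 2804 CD11b+ cells, which allows up to 0.135% and 0.131% of cells with a UMI and 0.239 and 0.263 CPM at 3 UMIs.

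**Figure D1:**
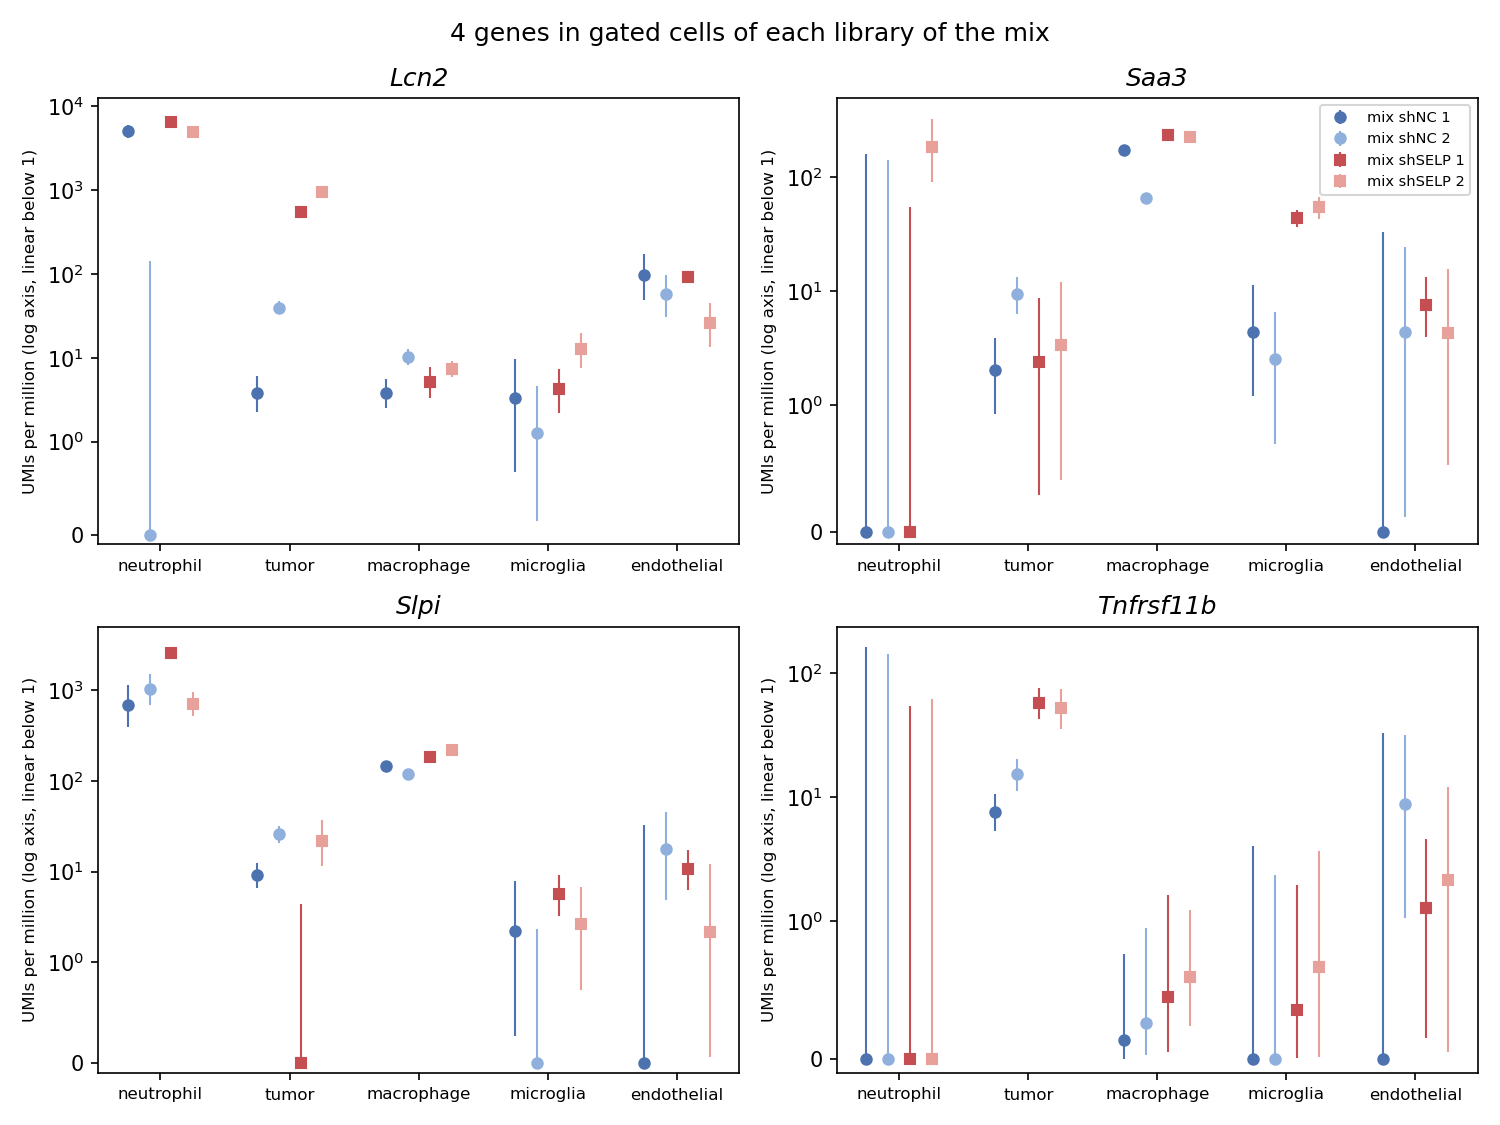
Level of each of the 4 genes in CPM (symmetric log axis, linear below 1) in 5 cell classes, 1 point per library of the mix with its 95% exact Poisson interval. Lcn2 is high in the neutrophils of 3 libraries and in the tumor cells of the shSELP libraries, Saa3 in macrophages, Slpi in neutrophils and macrophages, and Tnfrsf11b in tumor cells.

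Lcn2, the iron-carrier-binding lipocalin, had its highest mean level in neutrophils among classes with at least 10 cells in 3 or more libraries. Their levels were 5027 CPM in shNC 1, 0 in shNC 2, 6461 in shSELP 1 and 4934 in shSELP 2, from 115, 0, 438 and 297 UMIs in 8, 12, 23 and 18 cells. At 0 UMIs the shNC 2 neutrophils lay below 116 CPM, the level of 3 UMIs there. At least 1 Lcn2 UMI was found in 4 of 8, 0 of 12, 18 of 23 and 10 of 18 neutrophils. T and NK cells, which are not known as a source of Lcn2, had a UMI in 0.649%, 1.40%, 2.35% and 8.42% of cells, at median depths of 5560, 5502, 4863 and 7495 UMIs against 1582.5, 1714, 2147 and 2641.5 in neutrophils. Neutrophil detection thus lay far above this background in 3 libraries at a lower depth.

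In the 3 libraries of the mix with neutrophil Lcn2, most of its UMIs lay in few cells rich in granule messages. Cells with at least 10 UMIs summed over the granule genes Ltf, Ngp and Camp numbered 1, 0, 5 and 2. This limit was chosen after the values were seen. They held 100 of 115, 0 of 0, 317 of 438 and 265 of 297 Lcn2 UMIs. Most cells with a Lcn2 UMI were below that limit all the same, 3 of 4 in shNC 1, 13 of 18 in shSELP 1 and 8 of 10 in shSELP 2. The shNC 2 neutrophils differed from the others in their markers. Their 8 neutrophil markers summed to 20476 CPM, against 143813 in shNC 1, 264559 in shSELP 1 and 171202 in shSELP 2, with all 8 detected in each library and S100a8 the most abundant, at 6632, 68016, 118274 and 83159 CPM. Of a wider list of 10 granule genes, 2 were detected in shNC 2, at 310 CPM in sum. In shNC 1, shSELP 1 and shSELP 2, 7, 8 and 8 of 10 were detected, at 33440, 26729 and 50035 CPM. The part of this difference in the Lcn2 level of shNC 2 was not tested. CD11b+ libraries gated few neutrophils, 9 in shNC with 7 Lcn2 UMIs in 4 of them and 2 in shSELP with none, and none of these cells reached the granule limit.

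Macrophages were the reference for testing the classes, with library as a block in 1 fit of edgeR over all genes and the sums of 5 classes, since this contrast is not the one the genes were picked on. The sums do include the shSELP libraries whose levels the genes were picked on. Folds of the 4 genes between classes are therefore descriptions, and nothing is drawn from their p or calls. A sum of under 10 cells was dropped, which left neutrophils of 3 libraries, without shNC 1. A gene was called at an adjusted p under 0.05, and all 4 genes passed the filter on low counts of this fit. Macrophages had 3.84, 10.3, 5.17 and 7.45 CPM of Lcn2. The neutrophil level was 168-fold higher, a log2 fold change of 7.39 ± 1.07 (SE, n = 3 libraries), higher in 2 of 3 libraries. These 2 are the shSELP libraries, and shNC 2, the only shNC sum in the fit, had 0 against 10.3 CPM, so the fold is a description and nothing is drawn from its p. Outside the fit, the 8 neutrophils of shNC 1 had 5027 against 3.84 CPM in macrophages. In this contrast 16.9% of genes were called, and 2 of the 4 genes, Lcn2 and Slpi. Leaving out shNC 2, shSELP 1 or shSELP 2 gave log2 fold changes of 8.78, 5.80 and 6.63.

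Scaling matters to these contrasts, because the median log2 fold change of all genes in neutrophils was -1.16 in edgeR and 0.17 in DESeq2. In tumor cells the medians were 0.04 and 0.69, in endothelial cells -0.01 and 0.60, and in microglia 0.01 and 0.21. Relative to the median of its tool, neutrophil Lcn2 was higher by 8.55 in edgeR and 7.85 in DESeq2. Of the genes called in neutrophils 22.0% were higher in edgeR and 74.4% in DESeq2. These shares were 51.3% and 72.5% in tumor cells, 49.7% and 72.6% in endothelial cells and 50.8% and 69.7% in microglia. With the stricter gate the share in edgeR was 68.5% in tumor cells and 63.2% in endothelial cells. In neutrophils it was 9.56% without shSELP 1 and 11.5% without the highest Scrublet scores.

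Among these classes tumor cells came next in the order of mean Lcn2 levels, with levels that differed widely between libraries. Cells with ependymal and choroid markers, 5 in shNC and 54 in shSELP, had higher means than tumor cells in both groups, 4961 and 1033 CPM, and in shNC a higher mean than neutrophils, which had 2513 there, with all 471 shNC UMIs in 1 cell and 130 of the 162 shSELP UMIs in another. Astrocytes, 1 in shNC 2, 7 in shSELP 1 and 5 in shSELP 2, had 0, 12 and 63 Lcn2 UMIs, or 274 and 1797 CPM in the shSELP libraries, with 11 and 42 UMIs in the top cells. Tumor cells of shNC 1 and shNC 2 had 3.83 and 39.6 CPM of Lcn2, and those of shSELP 1 and shSELP 2 had 547 and 944 CPM, from 17, 127, 456 and 562 UMIs. Both shSELP libraries lay above both shNC libraries, and the means were 21.7 ± 25.3 and 745 ± 281 CPM (SD, n = 2), a ratio of 34.3. Since Lcn2 was picked on this contrast, the ratio is a description. In tumor cells 24.1% of all genes tested lay higher in both shSELP libraries than in both shNC libraries, among them 2 of the 4 genes, Lcn2 and Tnfrsf11b. The share of tumor cells with a Lcn2 UMI was 2.81%, 7.04%, 28.6% and 37.3%, beside the shares of T and NK cells given above. Median depths of the tumor cells were 16458, 16744, 14992 and 9800 UMIs. With each cell thinned at random to 2000 UMIs, the shares were 0%, 2.11%, 18.5% and 15.6% in tumor cells and 0.466%, 0.624%, 0.971% and 2.07% in T and NK cells.

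Against macrophages, tumor cells had 12.6-fold more Lcn2, a fitted log2 fold change of 3.66 ± 0.90 (SE, n = 4 libraries), higher in 3 of 4 libraries. Relative to the medians of all genes it was 3.62 in edgeR and 3.81 in DESeq2. In this contrast 69.0% of genes were called, and so were all 4 of the genes described here. The height of tumor Lcn2 comes from the shSELP libraries on which the gene was picked, so the fold is a description and nothing is drawn from its p. In the shNC libraries alone tumor cells and macrophages had 3.83 and 3.84 CPM in shNC 1, and 39.6 and 10.3 CPM in shNC 2. Without shSELP 1 the log2 fold change was 2.89 and without shSELP 2 it was 2.43, while without shNC 1 or shNC 2 it was 4.38 or 4.90.

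Few tumor cells carried most of this message. The 5 tumor cells with the most Lcn2 held 82.4%, 91.3%, 83.1% and 94.1% of the tumor UMIs of the gene, with 5, 91, 134 and 270 UMIs in the top cell of each library. At least 5 UMIs were found in 1 and 3 shNC cells and in 9 and 7 shSELP cells. These 20 cells are a group chosen after the values were seen. The imprinted RNA H19, a tumor marker of the gate, stood at 53.8 CPM in them. It stood at 908 CPM in 534 tumor cells with no Lcn2 UMI and at 234 CPM in 37 cells with 1 to 4 UMIs. The 534 cells came from shNC 1, shNC 2, shSELP 1 and shSELP 2 as 277, 185, 40 and 32, so levels pooled over libraries also carry the differences between the groups. Pooled, complement C3 had 108 against 3.61 CPM, the iron oxidase Cp (ceruloplasmin) 995 against 242, the chemokine Cxcl2 5051 against 892 and the lipopolysaccharide-binding protein Lbp 111 against 20.7. In the 1 such cell of shNC 1, however, Cxcl2 had 332 against 517 CPM and C3 had 0 against 3.06. In shSELP 1 C3 had 65.2 against 14.8 CPM and Cp 1159 against 334, and in shSELP 2 C3 had 232 against 9.69 and Cp 1033 against 368. Wfdc2, which like Slpi encodes a protein with the whey acidic protein fold, had 266 against 6.35 CPM, but this came from shNC cells, with 923 and 941 CPM in shNC 1 and shNC 2 and 0 and 19.3 in shSELP 1 and shSELP 2. Tnfrsf11b had 92.7 against 14.0 CPM, with 138 against 33.4 in shSELP 1, 96.5 against 51.7 in shSELP 2 and 15.2 against 15.4 in shNC 2. Slpi had 272 against 1.49 CPM, with 1168 in the 3 cells of shNC 2 and 0 in shSELP 1.

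The 20 cells had all 8 tumor markers, at 1417 CPM in sum against 3134 in the 534 cells, with Prph the most abundant at 368 CPM. Neutrophil markers were detected for 3 of 8, at 23.9 against 19.8 CPM with G0s2 highest at 14.9, and S100a8, Retnlg, Csf3r, Cxcr2 and Il1r2 at 0. Granule genes had 0 UMIs for 10 of 10. The Y-linked genes Ddx3y, Eif2s3y, Kdm5d and Uty, a list also chosen after the values were seen, had 0 UMIs in the 20 cells. A UMI of them was found in 0.846% of 591 tumor cells, against 74.4% of macrophages, 74.9% of T and NK cells, 72.6% of microglia and 55.4% of endothelial cells. Choroid plexus markers were detected for 3 of 8, at 377 against 89.4 CPM, nearly all of it Ttr at 371, with Kcnj13, Ccdc153, Tmem212, Kl and Clic6 at 0. Astrocyte markers were detected for 5 of 8, at 224 against 512 CPM, with S100b highest at 108 and Aqp4, Slc1a3 and Slc1a2 at 0.

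Endothelial cells had 97.8, 57.3, 93.4 and 25.9 CPM of Lcn2, from 11, 13, 147 and 12 UMIs in 3 of 20, 4 of 33, 23 of 341 and 7 of 70 cells, and lay above macrophages in 4 of 4 libraries. The log2 fold change of 1.80 ± 1.08 (SE, n = 4) did not pass edgeR's test, with an adjusted p of 0.154, in a contrast where 59.2% of genes were called, Saa3 and Slpi among them. DESeq2 called it at 3.23, or 2.63 relative to its median. Without shNC 2 it passed in edgeR at 2.50, as it did with no filter (1.70), the stricter gate (2.43) and no library block (2.66). Without shSELP 1 it was 0.90, and with Seurat clusters its direction turned, at -0.49. In 9 endothelial cells with at least 5 Lcn2 UMIs, the choroid plexus markers stood at 10133 CPM, of which Ttr made 10057, against 3414 CPM in 427 endothelial cells with none. Neutrophil markers in the 37 endothelial cells with any Lcn2 UMI were detected for 7 of 8, at 373 against 22.2 CPM, with S100a9 highest at 130 and Cxcr2 at 0. Their part in the endothelial Lcn2 level was not tested.

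In microglia Lcn2 had 3.30, 1.27, 4.25 and 12.6 CPM. It did not differ from macrophages by edgeR's test, with a log2 fold change of -1.45 ± 1.18 (SE, n = 4), lower in 3 of 4 libraries, and an adjusted p of 0.383 in a contrast where 31.0% of genes were called, Saa3 and Slpi among them. With 1 library left out it ran from -2.61 (without shSELP 2) to -0.41 (without shNC 2), not called in any. With no filter on low counts edgeR did call it. Macrophage Lcn2 was rare as well, and 60 of the 78 UMIs of shNC 2 lay in 1 cell. The groups of the mix overlapped there, with means of 7.07 and 6.31 CPM. The fitted log2 fold change of -0.03 turned to 1.31 without the top cell of each library, 0.82 without shNC 2, 1.55 with the looser and 1.11 with the stricter gate, 2.36 with Seurat clusters and 1.23 without the highest Scrublet scores. The 122 macrophages with a Lcn2 UMI had neutrophil markers at 1713 CPM against 230 in those without, for 6 of 8 markers, with S100a8 highest at 806 and Retnlg and G0s2 at 0. Their granule genes, a list that holds Chil3, a macrophage marker of the gate, summed to 974 against 251 CPM. How far neutrophil RNA gave these UMIs was not tested.

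Over all classes of the mix with at least 3 libraries, the mean Lcn2 level ± SD ran in the order neutrophil (3798 ± 3377 CPM), tumor (384 ± 448), endothelial (68.6 ± 33.7) and cells in no class (51.4 ± 54.7). Oligodendrocytes (13.8), B and plasma cells (8.09), mural cells (6.75), macrophages (6.69), microglia (5.37), T and NK cells (4.01) and dendritic cells (0.564) followed. Each class overlapped its neighbour in this order.

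Saa3, the serum amyloid A protein of macrophages, had its highest mean level in that class. Macrophages of shNC 1 and shNC 2 had 174 and 65.4 CPM of Saa3, and those of shSELP 1 and shSELP 2 had 236 and 224, from 1272, 495, 1050 and 2647 UMIs. The shSELP libraries lay above the shNC libraries, with means of 120 ± 77.1 and 230 ± 8.30 CPM (SD, n = 2) and a ratio of 1.92. The shNC libraries differed from each other more than shNC 1 differed from the shSELP libraries, and the fitted log2 fold change of 0.997 became 1.91 without shNC 1 and 0.44 without shNC 2. In macrophages 14.1% of all genes tested lay higher in both shSELP libraries, Saa3 and Slpi among them.

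The message was unevenly spread over macrophages. A Saa3 UMI was found in 14.1%, 8.13%, 14.4% and 18.5% of macrophages, at median depths of 10043, 9303.5, 9058.5 and 15568 UMIs, against 1.08%, 0.798%, 0% and 1.23% of T and NK cells. After thinning to 2000 UMIs per cell the shares were 8.53%, 4.13%, 8.51% and 8.13%, against 0.466%, 0.208%, 0% and 0.414%. The shares of shNC 1, shSELP 1 and shSELP 2 were thus close at equal depth. The 5 macrophages with the most Saa3 held 38.8%, 43.2%, 38.2% and 48.7% of its macrophage UMIs, and the top cells had 198, 69, 115 and 637.

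Macrophages with at least 5 Saa3 UMIs, 157 in the mix with a median of 14465 UMIs, were set beside 2151 with none at a median of 10857. These groups were formed after the values were seen, and the genes below are examples of the largest ratios. The T cell chemokine Ccl5 stood at 6631 against 2963 CPM, the hemoglobin-binding acute-phase protein Hp at 142 against 64.8, the fatty acid carrier Fabp5 at 1881 against 974 and Slpi at 410 against 149. Lower were the elastase Mmp12, at 19.95 against 116 CPM, the monocyte receptor Ccr2, at 40.3 against 105, and S100a4, at 51.1 against 120. The 157 cells came as 42, 23, 33 and 59 from shNC 1, shNC 2, shSELP 1 and shSELP 2, and the 2151 as 583, 610, 368 and 590, so pooled levels also carry the differences between libraries. In CD11b+ macrophages, 70 cells against 3063, the same reading gave Ccl5 7903 against 1181 CPM, Fabp5 3151 against 1215, Ccr2 9.37 against 134 and S100a4 28.1 against 309. Slpi stood at 31.2 against 91.0 CPM there. Of the 70 cells 60 came from the shSELP library, and of the 3063 cells 1648, so each of these levels also carries the difference between the 2 libraries.

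Tumor cells held little Saa3, with 2.03, 9.36, 2.40 and 3.36 CPM, and endothelial cells held 0, 4.41, 7.62 and 4.32. Both classes lay below macrophages in 4 of 4 libraries. The log2 fold changes in edgeR were -5.39 ± 0.48 in tumor cells and -5.82 ± 0.65 in endothelial cells (SE, n = 4). Macrophage sums of the shSELP libraries, on which Saa3 was picked, enter these folds, so they are a description. Without shNC 2 the tumor value was -6.91 and without shNC 1 it was -4.73, and without shSELP 1 the endothelial value was -6.58. Relative to the medians of all genes the tumor difference was -5.43 in edgeR and -5.80 in DESeq2.

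Neutrophil Saa3 came from 11 UMIs in 2 cells of shSELP 2, or 183 CPM there and 0 in the other libraries of the mix. It lay below macrophages in 3 of 3 libraries but did not pass edgeR's test, with a log2 fold change of -2.13 ± 0.83 (SE, n = 3) and an adjusted p of 0.0798. It passed without shNC 2, at -2.06, and without shSELP 2, at -12.34, where neutrophils had no Saa3 UMI left and the fitted value is no bound.

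Microglia, the resident macrophages of the brain, had 4.40 and 2.54 CPM of Saa3 in shNC 1 and shNC 2 and 43.6 and 54.6 CPM in shSELP 1 and shSELP 2. Both shSELP libraries were high, and the ratio of the means was 14.1, but single cells made these levels, with 63 of 123 UMIs in 1 cell of shSELP 1 and 79 of 82 in 1 cell of shSELP 2. The fitted log2 fold change of 3.84 was 1.26 with Seurat clusters in place of the gate. In microglia 27.3% of all genes tested lay higher in both shSELP libraries, Saa3 among them. Against macrophages the level was lower in 4 of 4 libraries, with a log2 fold change of -3.01 ± 0.40 (SE) in edgeR. Relative to the medians of edgeR and DESeq2 it was -3.02 and -3.50, a description as for the other classes. The order of mean Saa3 levels ± SD was macrophage (175 ± 77.8 CPM), neutrophil (60.9 ± 105), cells in no class (52.5 ± 50.3), microglia (26.3 ± 26.7), tumor (4.29 ± 3.43), endothelial (4.09 ± 3.13), then oligodendrocytes (2.01), dendritic cells (1.32), B and plasma cells (1.22), T and NK cells (1.16) and mural cells (0). The neutrophil mean leaves out shNC 1, whose 8 cells had no Saa3 UMI. The place of neutrophils above cells in no class thus rests on the limit of 10 cells. Each class overlapped its neighbour in this order.

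Slpi, the protease inhibitor, was a gene of both neutrophils and macrophages. Neutrophils had 699, 1047, 2567 and 714 CPM of Slpi, from 16, 27, 174 and 43 UMIs, and macrophages had 147, 120, 185 and 221 CPM, from 1072, 909, 825 and 2606. Neutrophil Slpi was 5.40-fold higher, a log2 fold change of 2.43 ± 0.44 (SE, n = 3), higher in 3 of 3 libraries. Relative to the medians of all genes it was 3.59 in edgeR and 2.68 in DESeq2. The sums include both shSELP libraries, on which Slpi was picked, so the fold is a description and nothing is drawn from its p. The shNC libraries had the same order, with 1047 against 120 CPM in shNC 2 and, outside the fit, 699 against 147 CPM in shNC 1. Without shSELP 1, whose neutrophils were highest, the log2 fold change was 1.15, and without shSELP 2 it was 2.96. Unlike Lcn2, Slpi was found in shNC 2 neutrophils, in 7 of 12 cells.

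A Slpi UMI was found in 24.0%, 26.8%, 29.5% and 38.8% of macrophages and in 0.216%, 1.20%, 0.706% and 1.23% of T and NK cells. After thinning these shares were 14.2%, 14.1%, 15.8% and 18.7% of macrophages and 0.233%, 0.832%, 0.485% and 0.414% of T and NK cells. Slpi in macrophages was thus well above background in all 4 libraries. The group means of macrophages were 134 ± 18.98 CPM in shNC and 203 ± 25.0 CPM in shSELP (SD, n = 2), a ratio of 1.52 given as a description.

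Macrophages with at least 5 Slpi UMIs were set beside those with none in the same way, and the genes given are examples from those with the largest ratios. In 275 such cells of the mix against 1748 with none, S100a8, a neutrophil marker of the gate, stood at 444 against 21.7 CPM. The chitinase-like Chil3 stood at 549 against 132, Hp at 158 against 41.5 and the activin subunit Inhba at 525 against 182. The part of neutrophil RNA in these levels was not tested. In 53 CD11b+ cells against 2882, Chil3 stood at 3289 against 251 CPM, Hp at 381 against 39.0 and S100a4 at 1551 against 202. Lower with Slpi were the B cell and macrophage receptor Cd72, at 79.1 against 293 CPM in the mix and 53.7 against 279 in CD11b+ cells, and the chemokine Ccl12, at 205 against 576 and 96.6 against 509. Saa3 stood at 410 against 125 CPM in the mix and at 32.2 against 108 in CD11b+ cells. In the mix the 275 cells came as 52, 49, 51 and 123 from shNC 1, shNC 2, shSELP 1 and shSELP 2, and the 1748 as 516, 486, 303 and 443. Of the 53 CD11b+ cells 33 came from the shNC library, and of the 2882 cells 1255, so all levels of this paragraph also carry the differences between libraries. The groups and genes were chosen after the values were seen.

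Chil3, a macrophage marker of the gate, divided the Slpi level in every library. In macrophages thinned to 2000 UMIs, those with a Chil3 UMI had 754, 540, 371 and 418 CPM of Slpi in shNC 1, shNC 2, shSELP 1 and shSELP 2, and those without had 118, 90.0, 207 and 205. In the CD11b+ libraries the levels were 372 against 57.1 CPM in shNC and 322 against 45.4 in shSELP. The marker was chosen for this after the values were seen.

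Tumor cells had 9.23, 25.9, 0 and 21.8 CPM of Slpi, and 77 of 83 UMIs of shNC 2 and 13 of 13 of shSELP 2 lay in 1 cell each. Endothelial cells had 0, 17.6, 10.8 and 2.16 CPM, and microglia 2.20, 0, 5.67 and 2.66. Each of these classes lay below macrophages in 4 of 4 libraries. Log2 fold changes in edgeR were -4.07 ± 0.42, -5.14 ± 0.60 and -6.08 ± 0.54 (SE). Macrophage sums of the shSELP libraries, on which Slpi was picked, enter these folds, so they are a description. The tumor value was -4.87 without shNC 2 and the microglia value -7.01 without shSELP 1.

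B and plasma cells held the highest mean level of Slpi, but unevenly. They had 4997 CPM in shNC 1, 809 in shNC 2, 107 in shSELP 1 and 114 in shSELP 2, from 1959, 348, 17 and 24 UMIs in 48, 52, 17 and 20 cells. The top 3 cells of shNC 1 held 623, 530 and 360 UMIs. The order of mean Slpi levels ± SD was B and plasma cells (1507 ± 2350 CPM), neutrophil (1443 ± 988), macrophage (168 ± 44.0), cells in no class (29.0 ± 16.1), tumor (14.2 ± 11.9) and endothelial (7.65 ± 8.13). T and NK cells (3.03), microglia (2.63), dendritic cells (0.977), mural cells (0) and oligodendrocytes (0) followed. Neutrophils and macrophages did not overlap, nor did macrophages and cells in no class, and the other neighbours overlapped.

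Tnfrsf11b, the decoy receptor osteoprotegerin, was found mainly in tumor cells. Tumor cells of shNC 1 and shNC 2 had 7.65 and 15.3 CPM of Tnfrsf11b, and those of shSELP 1 and shSELP 2 had 57.5 and 52.1, from 34, 49, 48 and 31 UMIs. Both shSELP libraries lay above both shNC libraries, with means of 11.5 ± 5.40 and 54.8 ± 3.86 CPM (SD, n = 2) and a ratio of 4.78, a description for the same reason as for Lcn2. A UMI was found in 8.07%, 17.1%, 32.1% and 21.6% of tumor cells, against 0.216%, 0%, 0.471% and 0.616% of T and NK cells. At 2000 UMIs per cell the tumor shares were 0.722%, 3.68%, 7.41% and 4.44%. No tumor cell had more than 9 UMIs. The 5 tumor cells with the most Tnfrsf11b held 38.2%, 30.6%, 60.4% and 80.6% of its tumor UMIs.

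Macrophages had 0.137, 0.264, 0.449 and 0.593 CPM of Tnfrsf11b, from 12 UMIs in all. The tumor level was 44.5-fold higher, a log2 fold change of 5.47 ± 0.40 (SE, n = 4), higher in 4 of 4 libraries. Relative to the medians of all genes it was 5.43 in edgeR and 5.58 in DESeq2. The gene passed the filter on low counts through the tumor sums, where it is high, so the fold is a description and nothing is drawn from its p. The shNC libraries alone show the same order, with 7.65 against 0.137 and 15.3 against 0.264 CPM. Endothelial cells had 5 UMIs, at 0, 8.82, 1.27 and 2.16 CPM, with a higher level than macrophages in 3 of 4 libraries. The log2 fold change was 1.29 ± 0.82 (SE, n = 4) in edgeR and 2.67 in DESeq2, or 2.06 relative to the DESeq2 median. With 1 library left out the edgeR value ran from 0.62 to 2.17. For the same reason, and with so few UMIs, this fold is a description as well. Neutrophils had 0 UMIs and microglia 2, so no fold is given for them.

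The order of mean Tnfrsf11b levels ± SD was tumor (33.1 ± 25.3 CPM), endothelial (3.06 ± 3.94), cells in no class (2.76 ± 1.42), mural (1.62), T and NK (0.487), macrophage (0.361), dendritic (0.346) and microglia (0.255), with neutrophils, B and plasma cells and oligodendrocytes at 0. Neighbours in this order overlapped. Tumor cells with at least 2 Tnfrsf11b UMIs, 33 cells chosen after the values were seen, were set beside 505 with none. Enpp2, the lysophospholipase D autotaxin, stood at 1242 against 282 CPM, the acute-phase serpin Serpina3n at 1242 against 357, Cp at 667 against 251 and Lcn2 at 946 against 70.6. Among the genes with the lowest ratios were the mitotic ubiquitin enzyme Ube2c, at 61.1 against 167 CPM, and the topoisomerase Top2a, at 52.8 against 130. Of the 33 cells 8, 10, 10 and 5 came from shNC 1, shNC 2, shSELP 1 and shSELP 2, and of the 505 cells 262, 165, 38 and 40, so the pooled levels also carry the differences between libraries.

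Lcn2 and Tnfrsf11b met in the same tumor cells at times. Both had a UMI in 1 of 285, 3 of 199, 10 of 56 and 5 of 51 tumor cells, where Lcn2 alone or with the other was found in 8, 14, 16 and 19 cells and Tnfrsf11b in 23, 34, 18 and 11. In macrophages Saa3 and Slpi were found together in 38, 24, 26 and 60 cells, of 96, 54, 62 and 134 with Saa3 and 163, 178, 127 and 281 with Slpi. In CD11b+ macrophages they met in 10 shNC and 26 shSELP cells, of 54 and 186 with Saa3 and 214 and 207 with Slpi. Deeper cells show more of every gene, and the part of depth in these overlaps was not tested.

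In CD11b+ cells, where each group has 1 library and no test was made, the genes were compared by the ratio of shSELP to shNC with its exact 95% interval for counting error. Macrophages had 35.0 CPM of Saa3 in shNC and 179 in shSELP, from 215 and 1236 UMIs, a ratio of 5.10 (4.41 to 5.93). The share of macrophages with a Saa3 UMI was 3.68% and 10.1%, or 2.73% and 8.13% after thinning, at median depths of 3671 and 3427 UMIs. Cells with at least 5 UMIs numbered 10 and 60, with 58 and 187 UMIs in the top cells. Saa3 was thus higher in the shSELP library in many cells and at a like depth. Slpi went the other way, with 112 CPM in shNC and 69.0 in shSELP from 685 and 477 UMIs, a ratio of 0.618 (0.549 to 0.696). Its share of cells was 14.6% and 11.3%, or 11.2% and 6.80% after thinning. Lcn2 in macrophages rested on 12 and 10 UMIs, a ratio of 0.740 (0.286 to 1.87), so no difference was detectable.

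CD11b+ microglia had 60.1 CPM of Saa3 in shNC and 47.3 in shSELP, a ratio of 0.786 (0.516 to 1.18) that was not detectable as a difference. This ratio depended on the cells taken, since it was 2.19 (1.61 to 2.997) with the looser gate and 0.447 (0.265 to 0.727) without the highest Scrublet scores. In CD11b+ cells of no class the ratios were 5.31 (4.33 to 6.55) for Saa3 and 0.493 (0.358 to 0.669) for Slpi, as in macrophages. Over all CD11b+ cells the ratio was 4.67 (4.19 to 5.22) for Saa3, 0.673 (0.603 to 0.750) for Slpi and 0.488 (0.253 to 0.903) for Lcn2. With 1 library per group the spread between libraries is unknown, and in the mix the shNC libraries alone differed from 65.4 to 174 CPM in macrophage Saa3.

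**Figure D2:**
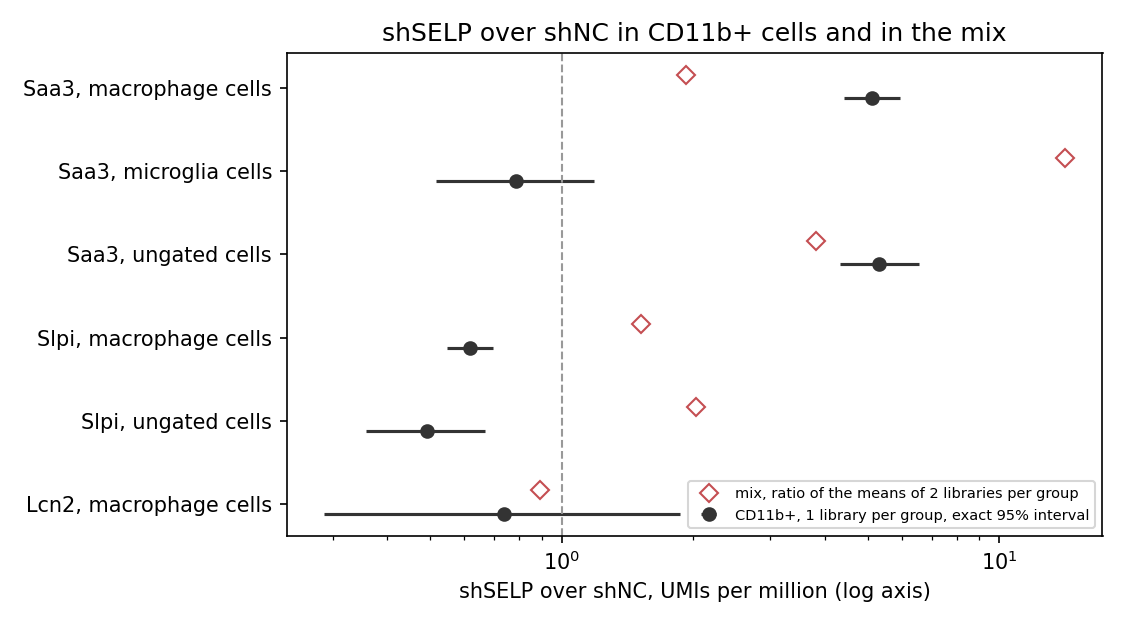
Ratio of shSELP to shNC levels (log axis) of Saa3, Slpi and Lcn2 by cell class, as the ratio in CD11b+ cells with its exact 95% interval (filled circles, 1 library per group) and the ratio of means in the mix (open diamonds, 2 libraries per group). Macrophage Saa3 lies at 5.10 in CD11b+ cells and 1.92 in the mix, and macrophage Slpi at 0.618 and 1.52. The genes were picked on the mix, so nothing is drawn from the direction of the mix ratios.

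The classes contributed different parts of each library's message. Of all Lcn2 UMIs, neutrophils gave 39.7%, 0%, 27.3% and 20.6% in shNC 1, shNC 2, shSELP 1 and shSELP 2, though they were few, and tumor cells gave 5.86%, 16.1%, 28.4% and 39.1%. Cells of no class gave 38.6%, 10.8%, 30.8% and 12.8%, the largest share in shSELP 1. In shNC 2 a single cell with ependymal and choroid markers held 471 UMIs, or 59.8% of the library, and in shNC 1 a single cell of no class held 105 of the 112 UMIs of those cells. Of the Saa3 UMIs macrophages gave 87.1%, 81.8%, 63.3% and 89.5%, and cells of no class 11.4%, 11.6%, 28.4% and 6.93%. Of the Slpi UMIs macrophages gave 33.6%, 60.1%, 71.99% and 87.9%, while B and plasma cells gave 61.3% in shNC 1 and 23.0% in shNC 2. Over all cells shNC 1 held 1959 of its 3195 Slpi UMIs in B and plasma cells. Of the Tnfrsf11b UMIs tumor cells gave 70.8%, 80.3%, 66.7% and 43.1%.

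**Figure D3:**
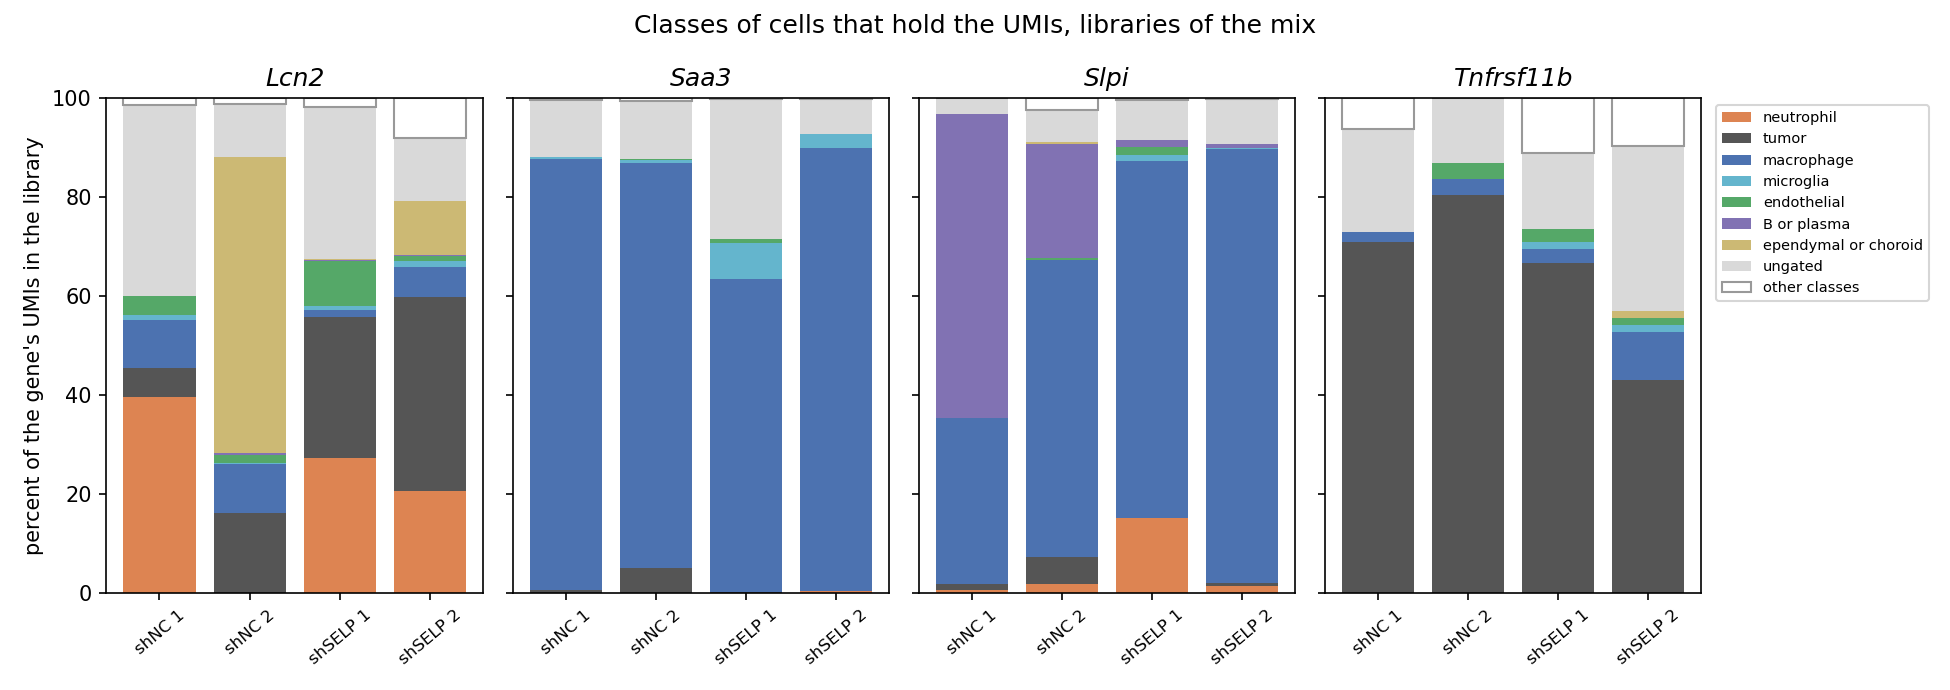
Percent of each gene's UMIs that came from each cell class, stacked to 100% per library of the mix. Macrophages hold most Saa3 (63.3% to 89.5%) and tumor cells 43.1% to 80.3% of Tnfrsf11b, while the source of Lcn2 and Slpi differs between libraries.

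Other acute-phase proteins, a list of 19 genes had 15 in the table and 9 tested between classes. No test of the list as a whole was made. In neutrophils 2 were higher and 1 lower than in macrophages, Lrg1 at a log2 fold change of 8.29 and Hp at 2.99 against Cfb at -5.44. Neutrophil Cfb had UMIs in shSELP 1 alone, at 14.8 CPM, so its value without that library (-12.40) is no bound. The median of the list was -0.37 beside -1.16 for all genes, and the shares of all genes called were 16.9% in neutrophils, 69.0% in tumor cells, 59.2% in endothelial cells and 31.0% in microglia. In tumor cells 3 were higher, Serpina3n (6.39), Cp (5.36) and the metallothionein Mt2 (3.87), and 5 lower, among them Cfb (-7.15), Hp (-5.63) and C3 (-5.32), with a median of -4.99 beside 0.04. With 1 library left out Hp there ran from -8.50 to -4.79. In endothelial cells 3 were higher, Lrg1 (6.82), Cp (4.29) and Mt2 (2.48), and 4 lower, with a median of 0.38 beside -0.01. In microglia 1 was higher, Cp (2.33), and 4 lower, with a median of -1.14 beside 0.01. Mt1 was the most abundant of the list, with 1835 CPM in tumor cells and 640 in macrophages on average, and did not pass the test in any of these contrasts. Without shSELP 1 Hp in neutrophils missed the threshold at 2.04, and DESeq2 did not call it, at 1.69. DESeq2 also called neither Serpina3g in endothelial cells (-0.75) nor Serpina3g (-0.95) and C3 (-1.40) in microglia. Serpina3g in microglia was also lost with the looser gate (-0.75).

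The same list holds genes that differed between shSELP and shNC by edgeR's test over all genes of the class. This and the other lists were chosen with earlier results of these data known, so their calls between the groups are given as a description. In tumor cells 0.0903% of genes were called, and 1 of the 7 list genes tested, C3. Its levels were 2.93 CPM in shNC 1, 2.81 in shNC 2, 29.97 in shSELP 1 and 67.2 in shSELP 2, and it rose by a log2 fold change of 3.98 ± 0.43 (SE, n = 2 libraries per group) with an adjusted p of 0.00447 in edgeR. Without shSELP 1 it was 4.47 with an adjusted p of 0.0838, and without shSELP 2 it was 3.37 with 0.205, neither called by edgeR. In macrophages 0.594% of genes were called, and 1 of 8, the complement factor Cfb. It had 121 and 132 CPM in shNC and 213 and 270 in shSELP and rose by 1.003 ± 0.13 (SE), with an adjusted p of 0.0144 in edgeR, and with a looser gate of 2 markers and a margin of 1 it was 0.97 with 0.0536. The medians of the list were 0.91 in tumor cells and 0.14 in macrophages, beside -0.02 and -0.0018 for all genes.

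In neutrophils the comparison had 3 sums, with shNC 2 the only shNC sum, so that its calls set 1 library against the shSELP libraries and nothing is drawn from them. In it 3.38% of genes were called. Of 5 list genes Hp, Lrg1 and Mt1 were called higher, and the first 2 had 0 UMIs in shNC 2, so their fitted values are no bounds. Hp stood at 1387 and 1213 CPM in shSELP 1 and shSELP 2, and shNC 1, left out of the test with its 8 cells, had 1137. Mt1 rested on shSELP 1, with 1696 CPM there, 116 in shSELP 2, 131 in shNC 1 and 77.6 in shNC 2. In microglia 0.255% of genes were called and 0 of 7 list genes, and in endothelial cells 1.93% and 0 of 5. The list's medians were 3.92, -0.19 and -0.04 in these classes, beside 0.10, 0.01 and 0.01 for all genes.

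Cytokines that induce acute-phase genes, and their receptors, were a list of 13 genes of which 12 were tested between classes. Il1b was the most abundant, at 9802 CPM in macrophages and 8218 in neutrophils on average, followed by Il1a at 973 and 1204 CPM. In tumor cells 2 were higher than in macrophages, the oncostatin M receptor Osmr (5.53) and Lif (1.01), and 9 lower, led by Il1b (-9.23), Il1a (-8.12), Il6 (-7.36) and Osm (-4.98). Endothelial cells had 3 higher, Osmr (6.85), Il1r1 (5.50) and Il6st (3.07), and 9 lower, led by Osm (-7.61) and Il1b (-6.36). Endothelial Osm had UMIs in shNC 2 alone, at 22.0 CPM, so its value without that library (-12.75) is no bound. In neutrophils 2 were higher, Il6 (2.99) and Tnf (1.57), and 0 lower, and in microglia 3 higher, Tnf (1.47), Il6st (1.16) and Il6ra (0.89), and 3 lower, led by Il1b (-2.91). These counts stand beside 69.0% of all genes called in tumor cells, 59.2% in endothelial cells, 16.9% in neutrophils and 31.0% in microglia. The medians were -3.21 in tumor cells, -2.18 in endothelial cells, -0.24 in neutrophils and -0.39 in microglia. Il6 in neutrophils rested on shNC 2, with 1900 CPM and 0 in the other libraries, so that without it no UMI is left and the fitted value is no bound, and DESeq2 did not call it (3.53). Tnf in neutrophils missed the threshold without shNC 2 (1.67) or shSELP 2 (0.18), with the looser gate (0.82) and without the highest Scrublet scores (1.13). Lif in tumor cells missed it without shNC 2 (0.50) and with Seurat clusters (0.85). In microglia the lower genes Il6 and Tnfrsf1a both missed it without shSELP 2 (-1.66 and -0.50), in DESeq2 (-2.06 and -0.34) and with the looser gate (-1.41 and -0.45), and Tnfrsf1a also without shNC 2 (-0.52) and after thinning (-0.53).

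Between shSELP and shNC, 0 of 10 of these genes were called in tumor cells, 0 of 10 in macrophages, 0 of 7 in endothelial cells and 1 of 9 in microglia, beside 0.0903%, 0.594%, 1.93% and 0.255% of all genes. That gene was Il6ra, with 48.4 CPM in shNC 1, 45.1 in shNC 2, 126 in shSELP 1 and 106 in shSELP 2, which rose by 1.29 ± 0.17 (SE, n = 2 libraries per group) with an adjusted p of 0.0277 in edgeR, and missed the threshold without shNC 2 at 1.21 and after thinning at 0.86. In neutrophils, where 3.38% of all genes were called, 1 of 6 was, Il6, with 1900 CPM in shNC 2 and 0 in both shSELP libraries. The shNC 1 neutrophils, outside the test, had 0 as well, and with 1 shNC sum in the fit nothing is drawn from this call. The medians were -0.01, 0.20, 0.08, 0.14 and -0.68 for tumor cells, macrophages, endothelial cells, microglia and neutrophils.

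Of 11 transcription regulators of these genes, Cebpd was higher than in macrophages in neutrophils (3.36), tumor cells (3.10) and endothelial cells (3.996). In neutrophils it ran from 2.06 to 3.59 with 1 library left out. Its relative Cebpb was higher in neutrophils (0.86) and lower in tumor cells (-2.87), endothelial cells (-3.64) and microglia (-0.77). In all, 3 were higher and 2 lower in neutrophils, 1 and 9 in tumor cells, 1 and 7 in endothelial cells and 0 and 3 in microglia, with medians of -0.54, -1.11, -0.72 and -0.14, beside 16.9%, 69.0%, 59.2% and 31.0% of all genes called. In neutrophils Cebpb missed the threshold without shSELP 1, at 0.40, with the looser gate (0.53) and without the highest Scrublet scores (0.42). Bcl3 (1.32) missed it without shNC 2 (1.35), shSELP 1 (0.86) or shSELP 2 (1.23) and in 4 other alternatives, at 0.69 to 1.19. The 2 lower genes there, Nfkb1 (-1.41) and Socs3 (-1.42), were not called by DESeq2, at -0.85 and -0.85. Nfkb1 also missed the threshold with the looser (-0.48) and the stricter gate (-1.11), and Socs3 without shSELP 2 (-1.05). DESeq2 did not call Nfkbiz in endothelial cells (-0.24) or Nfkb2 in microglia (-0.70), and Cebpb in microglia was lost with the looser gate (-0.67). The NF-κB inhibitor Nfkbia was the most abundant, at 4689 CPM in neutrophils and 1901 in macrophages, and passed no test between classes. Between shSELP and shNC 0 of 11 were called in tumor cells, macrophages and microglia, 0 of 10 in endothelial cells and 0 of 6 in neutrophils, with medians of 0.07, 0.08, 0.25, 0.12 and -0.53. Of all genes 0.0903%, 0.594%, 0.255%, 1.93% and 3.38% were called there, so a list of this length can have 0 calls by its size alone.

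Binding partners of the 4 proteins, a list of 14 genes with 10 tested, hold the receptors and targets on which they act. Mmp9, whose protein forms a complex with lipocalin 2, was higher in neutrophils than in macrophages (9.24), and the lipocalin receptor Slc22a17 was higher in tumor cells (2.88), endothelial cells (3.04) and microglia (4.17). The serum amyloid A receptor Fpr2 was lower in tumor cells (-6.76), endothelial cells (-7.59) and microglia (-4.23). Tnfrsf11a, the receptor whose ligand osteoprotegerin binds, was lower in tumor cells (-7.41) and higher in microglia (0.94), and Tnfsf10 (TRAIL) was higher in endothelial cells (3.40). With 1 library left out the tumor values of Slc22a17 and Fpr2 ran from 2.43 to 3.99 and from -10.11 to -6.24, and Tnfrsf11a in microglia from 0.60 to 1.09. In all, 2 were higher and 1 lower in neutrophils, 1 and 6 in tumor cells, 3 and 5 in endothelial cells and 3 and 2 in microglia, with medians of 0.58, -3.29, -1.12 and -0.45, beside 16.9%, 69.0%, 59.2% and 31.0% of all genes called. The 7 of 10 called in tumor cells are thus about the share of all genes. In neutrophils Fpr2 (1.39) and Tlr2 (-1.04) both missed the threshold without shSELP 2, at 1.40 and -0.86, which leaves only Mmp9 of the 3. Fpr2 also missed it without shSELP 1 (0.97) and after thinning (1.44), and Tlr2 in DESeq2 (-0.50) and with no library block (-0.96). Between shSELP and shNC 0 were called, of 5 tested in tumor cells, 3 in neutrophils, 8 in macrophages, 7 in microglia and 2 in endothelial cells, with medians of 0.12, 0.49, -0.31, -0.14 and 0.03, beside 0.0903%, 3.38%, 0.594%, 0.255% and 1.93% of all genes called.

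Of 10 genes of neutrophil granules, where lipocalin 2 is stored, 7 were tested. In neutrophils 6 were higher than in macrophages, led by Ngp (10.87), Camp (10.60), Mmp9 (9.24) and Ltf (8.75), the median of the list as well. With 1 library left out Ngp ran from 7.43 to 14.89 and Camp from 6.37 to 14.78. Without shSELP 1 or shSELP 2 Camp missed the threshold at 7.15 or 6.37, and DESeq2 called neither Camp (6.35) nor Ngp (12.46). In tumor cells 5 were lower, in endothelial cells 3 and in microglia 3, with medians of -5.77, -6.50 and -4.54. One of the lower genes in each is Chil3, a macrophage marker of the gate whose lower level follows from how the classes were made, which leaves 4, 2 and 2. Camp in tumor cells, the gene at the median, turned from -5.77 to 0.49 without shNC 2 and was not called with the stricter gate (-1.04), and DESeq2 did not call Mmp8 in endothelial cells (-3.99) or microglia (-4.31). All genes were called at 16.9% in neutrophils, 69.0% in tumor cells, 59.2% in endothelial cells and 31.0% in microglia. In the neutrophils of the shSELP libraries 6 of 7 were called higher than in shNC 2, led by Camp, Ngp, Chil3 and Mmp8, each with 0 UMIs in shNC 2, and the fitted median was 8.55. The shNC 1 neutrophils, outside this test, had the granule genes at 33440 CPM in sum, and with shNC 2 as the only shNC sum, of 12 cells, nothing is drawn from these calls. With the looser gate none of these 4 genes was called, nor were Hp, Lrg1, Mt1 and Il6. In macrophages 0 of 5 were called, beside 0.594% of all genes, with a median of -0.27, and none was tested in the other classes.

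Promoter sequences are shown for the genes that were picked together on their difference between the groups. RefSeq windows of GRCm38.p6, from 250 bases before to 50 after the start of the gene, were matched for 3 of the 4 genes, not for Tnfrsf11b. They are chr2:32387690-32387989 for Lcn2, chr7:46715627-46715926 for Saa3 and chr2:164356458-164356757 for Slpi, each on the minus strand and given 5′ to 3′, with the match to the C/EBP motif TTGCNNAA in capitals. The Lcn2 and Slpi windows lie wholly inside the GENCODE genes, which start further upstream, and the Saa3 window reaches from inside its GENCODE gene to beyond its start.
Lcn2: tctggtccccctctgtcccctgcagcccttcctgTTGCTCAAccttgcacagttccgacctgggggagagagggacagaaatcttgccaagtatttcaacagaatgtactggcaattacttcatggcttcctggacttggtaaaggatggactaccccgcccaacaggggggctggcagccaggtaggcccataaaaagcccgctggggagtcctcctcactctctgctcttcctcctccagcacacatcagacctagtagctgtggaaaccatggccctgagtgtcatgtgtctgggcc
Saa3: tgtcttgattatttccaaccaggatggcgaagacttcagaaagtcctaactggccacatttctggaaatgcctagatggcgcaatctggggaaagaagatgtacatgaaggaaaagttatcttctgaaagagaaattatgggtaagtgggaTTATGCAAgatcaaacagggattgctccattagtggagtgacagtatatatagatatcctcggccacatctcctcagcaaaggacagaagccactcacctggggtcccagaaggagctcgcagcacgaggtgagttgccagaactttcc
Slpi: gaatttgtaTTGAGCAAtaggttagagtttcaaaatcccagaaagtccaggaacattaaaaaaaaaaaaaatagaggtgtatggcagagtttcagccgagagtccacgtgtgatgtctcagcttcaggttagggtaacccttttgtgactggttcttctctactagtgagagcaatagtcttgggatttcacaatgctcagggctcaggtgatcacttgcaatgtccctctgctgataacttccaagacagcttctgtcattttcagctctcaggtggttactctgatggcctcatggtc

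Motifs were searched on both strands, as TTCNNNGAA for STAT, TTGCNNAA for C/EBP, TGANTCA for AP-1 and the NF-κB motif. Each of the 3 windows held 1 match to C/EBP and none to the other motifs, so no match overlapped another. The matches were TTGCTCAA at bases 35 to 42 of the Lcn2 window, TTATGCAA, which is a match on the opposite strand, at bases 152 to 159 of the Saa3 window, and TTGAGCAA, opposite as well, at bases 10 to 17 of the Slpi window. Of all 32851 windows of 27025 genes 10.8% held a C/EBP match, 4.51% an NF-κB match, 8.30% a STAT match and 7.81% an AP-1 match. A match describes the letters only.

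Genes whose level ran most like that of each gene over the 19 sums of 5 classes were ranked by Pearson's r of log2(CPM + 1), among 5900 genes, as a description. For Lcn2 they were Rab21 (0.868), Dhrs7 (0.839), Rnf144a (0.804), Zc3hav1 (0.803) and Ergic2 (0.787). For Saa3 they included Pdpn (0.869), F13a1 (0.80), Vegfa (0.795) and Atp2b1 (0.791). These 4 were highest in macrophages, with F13a1 at 112 CPM there and 8.08 in microglia. For Slpi they were Trem3 (0.926), Slfn4 (0.897), Clec4e (0.887), Ltb4r1 (0.886) and Il23a (0.883), each highest in neutrophils. For Tnfrsf11b they were Chchd2 (0.930), Arl1 (0.920), Cct3 (0.919), Apol9b (0.916) and Cbx3 (0.904), each highest in tumor cells. The 19 sums share libraries and classes and are not independent of each other.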

How the data were processed

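Droplet 3′ single-cell RNA sequencing was done on GL261 tumors with 4 libraries of the mix and 2 of CD11b+ cells, each in 8 sequencing runs. The authors ran Cell Ranger 1.3 against mm10 and deposited raw counts, whole numbers of UMIs per gene and cell, neither normalized nor scaled. Cells were joined to libraries by the prefix of their column, and columns of cells in no library numbered 0. The CD11b+ file holds cells under 500 genes and none over the mitochondrial limit. The members and the gene lists were chosen with earlier results of these data known.

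UMIs were summed per library and gated class, and sums of under 10 cells were dropped. In R 4.3.3, edgeR 4.0.16 was run with filterByExpr, TMM, the quasi-likelihood F test and Benjamini-Hochberg adjustment over all genes tested, at 0.05. Classes were compared with library as a block, and shSELP was compared with shNC within a class, for the lists and the share of genes called. The SE of a fold is its absolute log2 value over the square root of the F statistic. Intervals are exact Poisson for levels, Clopper-Pearson for shares and exact conditional for ratios, at 95%, and cover counting error only. A count of 0 was read against a floor of 3 UMIs in that library.

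Named from each list were called genes, up to 4 with the largest log2 fold change in each direction, and the 2 with the highest mean. Genes of like pattern were the 5 with the highest Pearson's r per member, at a mean of at least 20 CPM and a pseudocount of 1. Genes set beside cells high or low in a member had at least 100 CPM and 30 UMIs in 1 group, with 5 CPM added before ranking.

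Alternatives were DESeq2 1.42.0, low counts kept without a filter, the data without each library, a fit without or with a replicate block, a looser gate (2 markers, margin 1), a stricter gate (4 markers, margin 3), Seurat 5.3.0 clusters in place of gates (2000 variable genes, 12 components, resolution 0.8), cells thinned to 2000 UMIs, and the top 5% of Scrublet scores left out (scanpy 1.11.5, expected rate 0.05). The TMM scaling of CD11b+ libraries was also tried. Leaving out the top cell of each library was added after seeing the data. Python 3.11.15 with numpy 2.4.6, pandas 2.3.3, scipy 1.17.1 and matplotlib 3.10.9 served for the other steps. The edgeR fit was tested on simulated data.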

Additional observations from a re-analysis of the deposited data

Results flagged for a closer look

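Slpi in macrophages had a ratio of shSELP to shNC of 1.52 in the mix and 0.618 in CD11b+ cells, and the listing rests on these values lying on opposite sides of 1. The mix ratio is one that Slpi was picked on, so nothing is drawn from its direction, and the difference was not tested. In the mix both shSELP libraries lay above both shNC libraries, at 185 and 221 against 147 and 120 CPM, and the CD11b+ ratio had a counting interval of 0.549 to 0.696 from 1 library per group.

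Saa3 in microglia had a ratio of 14.1 in the mix and 0.786 in CD11b+ cells. The difference was not tested, and the CD11b+ interval of 0.516 to 1.18 includes 1. The looser gate gave a CD11b+ ratio of 2.19 (1.61 to 2.997), on the same side of 1 as the mix. In the mix 63 of 123 and 79 of 82 UMIs of the shSELP libraries lay in 1 cell each, and Seurat clusters gave a log2 fold change of 1.26 where the gate gave 3.84.

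Slpi within the mix also went opposite ways between classes, with a ratio of 1.52 in macrophages and 0.0381 in B and plasma cells, where shNC 1 and shNC 2 had 4997 and 809 CPM and shSELP 1 and shSELP 2 had 107 and 114. The 5 B and plasma cells with the most Slpi held 98.6% and 100% of its UMIs in shNC 1 and shNC 2, and in each shSELP library all of them, 17 and 24, lay in 1 cell. The difference was not tested.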

How the results depend on the processing

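Neutrophils had 8 to 23 cells a library, and Tnfrsf11b had 48 to 72 UMIs a library of the mix, so depth limits their results. Where a group keeps 1 library after a library is left out, the lone sample is assumed to vary like the other groups. Thinning, the stricter gate and Seurat clusters gave no value for shSELP against shNC in neutrophils, nor did Seurat clusters for neutrophils against macrophages. Leaving out shNC 2, shSELP 1 or shSELP 2 gave no value for shSELP against shNC in neutrophils. Thinning gave none for Tnfrsf11b, microglia Saa3 and endothelial Lcn2 between groups, nor did leaving out the top cell for the last 2, the stricter gate for microglia Saa3 or the Scrublet scores for endothelial Lcn2. Except where a count of genes tested or of libraries falls by construction, the cause was not tested. Of 163 values of the 4 genes between classes, 150 kept their direction and side of the threshold, 12 passed it anew and 1 reversed. Of 84 fitted values between shSELP and shNC, 66 moved by less than the spread between libraries, 12 moved more and 6 reversed. Of 1133 values of list genes, 1060 kept their call, 70 for 34 results lost it and 3 reversed. Of 100 counts of called genes 53 stayed within 1.5 times and 47 moved.

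For neutrophils against macrophages, 1885 genes were called, and 1066 (without shSELP 2) to 1841 with 1 library left out, 1159 with the stricter gate, 1093 after thinning and 2879 without the top Scrublet scores. Thinning gave 3667 calls for tumor cells, 3425 for endothelial cells and 1818 for microglia. For shSELP against shNC in tumor cells, 9 genes were called by edgeR, and with 1 library left out 0 (without shSELP 1) to 544 (without shNC 2), with 137 without shNC 1 and 1 without shSELP 2. At the 0, edgeR had 1027 genes at an unadjusted p under 0.05, and DESeq2, run on all 4 libraries, called 45. No filter gave 418, the looser gate 4, the stricter gate 16, Seurat clusters 5 and thinning 3. In neutrophils (37) DESeq2 gave 14, no filter 23 and the looser gate 4. In macrophages (62) no filter gave 531, 1 library left out 36 (without shSELP 2) to 88, with 39 without shSELP 1, the looser gate 15, thinning 22 and no top Scrublet scores 135. In microglia (21) DESeq2 gave 55, no filter 422, 1 library left out 41 (without shNC 2) to 285 (without shSELP 2), with 94 without shNC 1 and 85 without shSELP 1, the looser gate 104, the stricter gate 135 and no top Scrublet scores 164. In endothelial cells (103) no filter gave 412, 1 library left out 59 (without shNC 1) to 167 (without shNC 2), the looser gate 197, the stricter gate 11, Seurat clusters 6, thinning 62 and no top Scrublet scores 24.

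With a replicate block, which pairs libraries of the same number, the counts for shSELP against shNC were 426 in tumor cells, 251 in macrophages, 167 in microglia and 181 in endothelial cells.

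Saa3 in neutrophils against macrophages (log2 fold change -2.13) was called with no filter (-2.27), the looser gate (-2.68), no top Scrublet scores (-2.50) and without shNC 2 or shSELP 2, with a range of -12.34 (without shSELP 2) to -1.71 (without shSELP 1, not called). Lcn2 in endothelial cells (1.80) was called by DESeq2 (3.23), with no filter (1.70), the stricter gate (2.43), no library block (2.66) and without shNC 2 (2.50, the highest, with 0.90 without shSELP 1 the lowest), and reversed with Seurat clusters (-0.49). Tnfrsf11b in endothelial cells was called by DESeq2 (2.67), and nothing is drawn from that call. Lcn2 in microglia was called with no filter (-1.51).

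Between shSELP and shNC, tumor Lcn2 (5.15) ran from 4.21 to 7.49 with 1 library left out, the latter without shNC 2, and tumor Tnfrsf11b (2.28) from 1.83 to 2.76, with 2.79 under the stricter gate. Macrophage Saa3 ran from 0.44 to 1.91. Macrophage Slpi (0.67) was 0.93 with Seurat clusters and 0.29 after thinning. Microglia Saa3 (3.84) ran from 3.38 to 4.19, with 2.46 under the looser gate, 1.26 with Seurat clusters and 3.40 without the top Scrublet scores. Macrophage Lcn2 (-0.03) ran from -0.54 to 0.82 (without shNC 2), and reversed under the looser gate (1.55), the stricter gate (1.11), Seurat clusters (2.36), no top Scrublet scores (1.23) and without the top cell (1.31), the last chosen after seeing the data. Endothelial Lcn2 (-0.08) ran from -1.48 (without shSELP 1) to 0.37. The CD11b+ ratio of microglia Saa3 (0.786) was 2.19 under the looser gate and 0.447 without the top Scrublet scores, while 16 of 18 CD11b+ ratios stayed within their counting interval. Il6 in neutrophils against macrophages (2.99) ran from -9.73 (without shNC 2, where no neutrophil UMI is left and the value is no bound) to 3.81. The stricter gate gave -9.41. It takes the shNC 2 neutrophils below 10 cells and so drops their sum, which again leaves no neutrophil UMI, and the value is no bound. Camp in tumor cells against macrophages (-5.77) ran from -7.19 to 0.49, reversed without shNC 2, and lost its call under the stricter gate (-1.04).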

Other observations

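Clusters of the mix, made without the gates, placed the 4 messages as follows. A cluster of 489 cells, of which 58 were gated as neutrophils, 330 as macrophages and 96 in no class, held 857 Lcn2 UMIs. A cluster of 475 mostly tumor cells held 1129 Lcn2 and 175 Tnfrsf11b UMIs, and a further tumor cluster of 450 cells, 280 of them in no class, held 349 Lcn2 UMIs. Lcn2 was also found in a cluster of 226 cells, with 957 UMIs, and in one of 376 cells, with 363. The largest class was oligodendrocytes in the former, with 60 of 173 gated cells, and dendritic cells in the latter, with 56 of 118. Saa3 was concentrated in a macrophage cluster of 1165 cells with 4273 UMIs, and 473 lay in a cluster of 258 cells in which most gated cells were microglia. A cluster of 156 B and plasma cells held 2073 Slpi UMIs. These clusters were singled out after the values were seen.

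Levels in this and the next paragraph are pooled over libraries of both groups. In tumor cells with at least 5 Lcn2 UMIs against those with none, Chchd10, a mitochondrial protein, stood at 1282 against 187 CPM. The oligodendrocyte lineage factor Olig1 stood at 23.9 against 372 CPM, and the receptor-modifying protein Ramp1 at 0 against 102. Of the same kind, tumor cells with at least 2 Tnfrsf11b UMIs had 213 CPM of the interferon-induced Plscr1 against 61.2 in those with none.

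With more of the Saa3-rich CD11b+ cells from the shSELP library and more of the Slpi-rich ones from the shNC library, levels there also carry the difference between libraries. Macrophages rich in Saa3 in the mix had 675 CPM of the lysosomal glycoprotein Gpnmb against 352 in those with none, 197 of the coagulation factor F13a1 against 102 and 314 of Cfb against 176. In CD11b+ cells C3 stood at 753 against 276 CPM. Macrophages rich in Slpi had 309 CPM of the coagulation factor F10 against 108 in the mix, and 1235 of the matrix protein Thbs1 against 568. In CD11b+ cells they had 1395 CPM of C1qa against 5165. The 4 macrophages of the mix with at least 5 Lcn2 UMIs had 18302 CPM of S100a8 and 13196 CPM of granule genes in sum. Chil3, a macrophage marker of the gate, is one of these granule genes. All these cells and genes were chosen after the values were seen.

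In cells of no class the ratios of shSELP to shNC means were 4.55 for Lcn2, 3.82 for Saa3, 2.03 for Slpi and 2.26 for Tnfrsf11b. In T and NK cells Lcn2 stood at 1.35 CPM in shNC and 6.67 in shSELP on average, a ratio of 4.95. This came from 10 shNC and 53 shSELP UMIs, with 43 in shSELP 2, in cells not known as a source of Lcn2. In microglia Lcn2 stood at 2.28 and 8.45 CPM, a ratio of 3.70, from 5 and 31 UMIs. The genes were picked on this contrast, so all ratios of this paragraph are a description.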
